A study of Homo sapiens with 3 samples.

Results

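LIN28A, LIN28B, SALL4, ZFP42, DPPA4, L1TD1 and TERF1 are 7 genes of human pluripotent cells that were followed here while cells of the UCLA1 line turned on genes of nascent mesoderm. They were taken by their symbols from the 36601 genes counted, and each of the 7 symbols matched 1 row. The genes were chosen by their measured levels by day and in MESP1-positive against SOX2-positive cells, as genes retained during mesoderm differentiation, so those levels are given as a description. That label held for only part of the list. LIN28A, LIN28B, SALL4 and ZFP42 were within 1.5-fold of their day 1 level on day 3 or above it, while DPPA4, L1TD1 and TERF1 were lower.

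UCLA1 is an established line of human embryonic stem cells, grown here in a culture that the labels call GiMO. Geltrex, a matrix of basement membrane proteins, was laid over the cells. All groups share this line and this culture, and they differ in the day on which the cells were collected, day 1, 2 or 3. The series title speaks of a response to BMP4, but the labels do not state for any library whether or when BMP4 was added. Single cells were counted with unique molecular identifiers (UMIs) on the droplet platform of 10x Genomics, in 3 libraries, 1 per day. There is therefore no replicate of a day, no test between days and no p-value. Intervals are at 95% throughout and describe counting error alone. Day, library and any batch cannot be told apart.

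After filtering, 3533, 7224 and 6804 cells remained on days 1, 2 and 3, with medians of 41557, 15657.5 and 19225 UMIs per cell. The libraries shared 5 to 10 cell barcodes in each pair, under 0.2% of the smaller library. A level is the UMIs of a gene summed over cells and given per 1000000 UMIs (CPM). The kit counts transcript ends, not length. A level is compared here between days or cells and not between genes. A gene was called higher or lower where its ratio reached 1.5-fold with at least 10 CPM on the higher side. Scaling matters between days: the median log2 ratio of all genes tested was 0.22 from day 1 to day 2 and 0.27 from day 1 to day 3, and -0.12 and -0.06 with TMM factors, a scaling that balances most genes.

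Cells were also split within each library after every cell had been thinned at random to 5000 UMIs. A cell was MESP1-positive with a UMI of MESP1, a transcription factor of nascent mesoderm, and none of SOX2. It was SOX2-positive with a UMI of SOX2, a core pluripotency factor, and none of MESP1. Day 1 held 1932 SOX2-positive and 11 MESP1-positive cells, too few of the latter for a comparison. Day 2 held 1631 and 1185, and day 3 held 106 and 4217. A further 90 cells on day 2 and 24 on day 3 had both, and 3836 and 2328 had neither. The 2 classes had similar depth, with medians of 16621 UMIs in SOX2-positive and 15847 in MESP1-positive cells on day 2, and 20183 and 19665 on day 3. Levels in a class come from all UMIs of its cells.

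Markers of several cell types were summed in each class. The summed level of 7 pluripotent markers was 2172.6 CPM in SOX2-positive and 1287 CPM in MESP1-positive cells on day 2, and 2024.5 and 620.0 CPM on day 3. SOX2 itself, which defines the classes, gave 204 and 11.1 CPM of these on day 2 and 162 and 1.09 CPM on day 3. The summed level of 11 mesoderm markers was 79.1 and 999 CPM on day 2, and 264 and 2577 CPM on day 3. MESP1, the other defining gene, gave 7.69 and 352 CPM of these on day 2 and 22.3 and 440.5 CPM on day 3. The 7 markers of the primitive streak had similar sums in the 2 classes on day 3. They summed to 128 CPM in the SOX2-positive cells of day 1, to 458 and 1454 CPM in SOX2-positive and MESP1-positive cells on day 2, and to 774 and 828 CPM on day 3. Single streak markers went both ways on day 3. In MESP1-positive over SOX2-positive cells 2 were called higher and 2 lower, beside 11.2% and 18.8% of all genes tested. TBXT was at 32.5 CPM in SOX2-positive and 68.5 CPM in MESP1-positive cells, and NODAL at 122 and 19.7 CPM. MIXL1 and EOMES, 2 streak factors, were at 268 and 153 CPM in the SOX2-positive cells of day 3, so these cells carried streak markers beside SOX2. On days 2 and 3 the 5 neural markers summed to at most 2.60 CPM in the 2 classes, with SOX1 at 0 in both classes on both days. Their sum was 3.57 CPM in the SOX2-positive cells of day 1. The 6 germ cell markers summed to 44.1 CPM in the SOX2-positive and 21.7 CPM in the MESP1-positive cells of day 3, with SOX17 at 13.7 and 7.17 CPM and NANOS3 at 1.28 and 1.38 CPM. The 6 definitive endoderm markers summed to 86.4 and 153 CPM there, of which CER1 gave 69.3 and 140 CPM, and 9 amnion markers summed to 43.6 and 119 CPM. The day 3 cells with neither gene had 84.4 CPM of the germ cell and 236 CPM of the amnion markers. The part of these markers in the differences between classes was not tested.

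LIN28A and LIN28B are RNA-binding proteins that keep the let-7 family of microRNAs from maturing, and their loss during development lets let-7 accumulate. L1TD1 is an RNA-binding protein derived from a LINE-1 element that is abundant in human embryonic stem cells. SALL4 is a zinc finger transcription factor that works with the NuRD histone deacetylase complex and is also used in early mesoderm and germ cells. ZFP42, known as REX1, is a zinc finger protein derived from YY1, and DPPA4 is a small chromatin protein that pairs with DPPA2. TERF1 binds telomeric repeats as part of shelterin, the complex that protects chromosome ends.

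The LIN28 proteins recognise the letters GGAG in the loop region of let-7 precursors. These sequences are shown because they are the known targets of the 2 LIN28 proteins, whose transcripts were still at 313 and 213 CPM in the MESP1-positive cells of day 3. Poly(A) counts do not measure let-7 itself. Among 12 let-7 family hairpins of RefSeq on GRCh38.p14, 9 hold GGAG outside the mature arms. In the hairpins below, capitals mark that GGAG, and MIRLET7A3 has none. MIRLET7A1 lies at chr9:94175957-94176036 on the plus strand, MIRLET7G at chr3:52268278-52268361 on the minus strand and MIRLET7A3 at chr22:46112749-46112822 on the plus strand. In the mature let-7a, at chr9:94175962-94175983 on the plus strand, capitals mark the seed, bases 2 to 8, which all 12 hairpins share.
MIRLET7A1: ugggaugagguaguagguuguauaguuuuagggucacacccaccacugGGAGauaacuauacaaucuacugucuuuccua
MIRLET7G: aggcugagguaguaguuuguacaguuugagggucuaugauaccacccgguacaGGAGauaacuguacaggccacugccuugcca
MIRLET7A3: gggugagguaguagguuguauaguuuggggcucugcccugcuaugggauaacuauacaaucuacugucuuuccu
hsa-let-7a-5p: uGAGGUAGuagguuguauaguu

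Between day 1 and day 2 none of the 7 genes was called in either direction. In the same comparison 17.4% of 9715 genes tested were called higher and 5.37% lower. Between day 2 and day 3, 3 of 7 were called lower and 0 higher, beside 12.2% and 12.3% of 10145 genes. From day 1 to day 3, 3 of 7 were called lower and 2 higher, beside 15.0% and 31.0% of 10102 genes. The median log2 ratio of the 7 was 0.30, -0.27 and 0.06 for these 3 steps, and that of all genes tested 0.22, 0.05 and 0.27. Because the genes were chosen with these levels known, nothing is read from the counts. The comparisons share libraries and are not independent of each other.

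**Figure D1:**
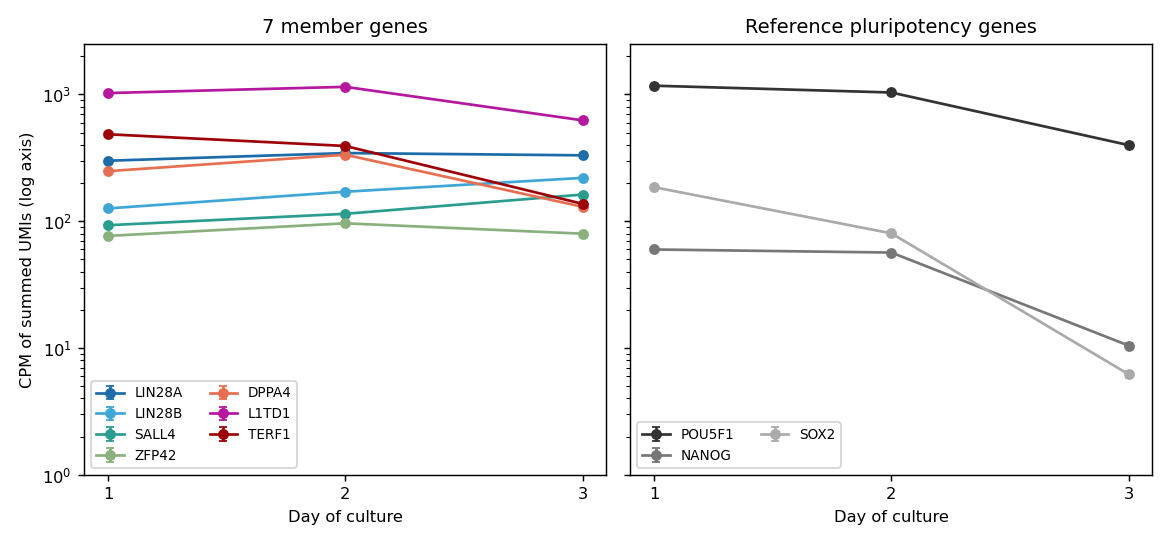
Level of each gene as CPM of summed UMIs (log axis) against the day of culture (a point for each of the 3 libraries; bars are exact Poisson 95% intervals). LIN28A, LIN28B, SALL4 and ZFP42 end at or above their day 1 level (LIN28A and ZFP42 below it with TMM scaling), DPPA4, L1TD1 and TERF1 end below it, and the reference genes POU5F1, NANOG and SOX2 end at 398, 10.4 and 6.20 CPM.

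LIN28A (ENSG00000131914, hg38 chromosome 1, 26410817 to 26429728) was nearly level. Its levels on days 1, 2 and 3 were 299.9, 345 and 331 CPM. Day 2 was 1.15 times day 1 (1.13 to 1.16), and day 3 was 1.10 times day 1 (1.09 to 1.12). The last value was 0.891 with TMM scaling, so its direction depends on the scaling.

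LIN28B (ENSG00000187772, hg38 chromosome 6, 104936616 to 105083332), the paralogue of LIN28A, was higher on each later day. It was at 126, 171 and 219.8 CPM on days 1, 2 and 3. Day 3 was 1.74 times day 1 (1.71 to 1.77), which met the 1.5-fold rule. With TMM scaling the ratio was 1.41 and did not meet it. SALL4 (ENSG00000101115, hg38 chromosome 20, 51782331 to 51802521) had almost the same course at 93.0, 114 and 162 CPM. Its day 3 level was 1.75 times that of day 1 (1.71 to 1.78), and 1.41 times with TMM scaling. Day 3 was the highest library for both genes under either scaling.

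ZFP42 (ENSG00000179059, hg38 chromosome 4, 187995771 to 188005046) was highest on day 2. It was at 76.6, 96.3 and 79.7 CPM on days 1, 2 and 3. Day 3 was 1.04 times day 1 (1.01 to 1.07), and 0.841 times with TMM scaling.

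DPPA4 (ENSG00000121570, hg38 chromosome 3, 109326144 to 109337546) was highest on day 2 and lowest on day 3. It was at 248, 335 and 129.9 CPM on days 1, 2 and 3. Day 3 was 2.58-fold below day 2 (2.53 to 2.62) and 1.91-fold below day 1. L1TD1 (ENSG00000240563, hg38 chromosome 1, 62194849 to 62212328) had the same order of days, at 1025, 1148 and 625 CPM, although with TMM scaling day 2 was 0.894 times day 1. Day 3 was 1.84-fold below day 2 (1.82 to 1.85) and 1.64-fold below day 1.

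TERF1 (ENSG00000147601, hg38 chromosome 8, 73008856 to 73048123) was lower on each later day, as LIN28A and L1TD1 also were with TMM scaling. It was at 485, 392 and 137 CPM on days 1, 2 and 3. Day 3 was 2.86-fold below day 2 (2.81 to 2.91) and 3.54-fold below day 1 (3.48 to 3.60). Its ratio of day 3 over day 1 ranked above 2.75% of genes tested, against 8.49% for DPPA4 and 12.3% for L1TD1. The day 2 over day 1 ratio of TERF1 was 0.808, and at 0.646 with TMM scaling it met the rule for a lower gene.

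As a scale for these changes, the reference pluripotency genes POU5F1, NANOG and SOX2 are factors of the core network. POU5F1 was at 1172, 1036 and 398 CPM, 2.94-fold lower on day 3 than on day 1. NANOG was 5.73-fold and SOX2 29.9-fold lower over the same interval. The fall of TERF1 therefore lay between that of POU5F1 and that of NANOG, and the falls of DPPA4 and L1TD1 were smaller than that of POU5F1.

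The promoter sequences of ZFP42, DPPA4 and L1TD1 are shown because DPPA4 and L1TD1 were called lower from day 2 to day 3 and ZFP42 was not. Each is the run of 250 bases before the transcript start in RefSeq on GRCh38.p14. ZFP42 is at chr4:187995521-187995770 on the plus strand, DPPA4 at chr3:109337547-109337796 on the minus strand and L1TD1 at chr1:62194599-62194848 on the plus strand. The letters ATGCAAAT (the POU octamer), ACAATG (a SOX motif) and GGCGGG (a run of G and C) were searched on both strands. They were found in 1.63%, 9.29% and 42.5% of 35116 promoter windows of this length, where they can overlap other motifs. In these 3 windows the single match was GGCGGG in ZFP42, in capitals. The order GGGCGG, the usual core of a GC box, was not searched, and it is present in each of these 3 windows. Their GC content was 74.4% for ZFP42, 43.2% for DPPA4 and 59.6% for L1TD1, beside a median of 58% over all windows. For LIN28B, also not called lower, the table holds 2 windows that are not printed here. One had 73.6% GC with 2 GGCGGG matches and 1 SOX motif, and 99 of its 250 bases lie in an annotated untranslated region. The other had 38.4% GC and no match, so the 2 windows of LIN28B differed in these features. The part of such features in the calls was not tested.
ZFP42: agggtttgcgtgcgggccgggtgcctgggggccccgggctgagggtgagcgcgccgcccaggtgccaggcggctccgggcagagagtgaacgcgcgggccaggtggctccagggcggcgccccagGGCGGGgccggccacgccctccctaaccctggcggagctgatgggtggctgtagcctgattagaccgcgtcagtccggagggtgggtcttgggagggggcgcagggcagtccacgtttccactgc
DPPA4: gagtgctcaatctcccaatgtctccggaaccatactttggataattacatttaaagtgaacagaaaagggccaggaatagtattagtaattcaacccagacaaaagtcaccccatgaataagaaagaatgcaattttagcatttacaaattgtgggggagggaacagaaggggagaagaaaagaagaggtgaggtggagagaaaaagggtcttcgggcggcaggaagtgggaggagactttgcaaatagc
L1TD1: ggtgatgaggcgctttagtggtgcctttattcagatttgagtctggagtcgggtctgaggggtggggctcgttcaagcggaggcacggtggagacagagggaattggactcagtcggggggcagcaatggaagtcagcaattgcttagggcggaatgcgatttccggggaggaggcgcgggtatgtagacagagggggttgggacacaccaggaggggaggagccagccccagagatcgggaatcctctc

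MESP1-positive cells were then set against SOX2-positive cells of the same library. The same 3 genes, DPPA4, L1TD1 and TERF1, were called lower in MESP1-positive cells on day 2 and again on day 3, and 0 of 7 were called higher. On day 2 8.13% of 9865 genes tested were called lower and 7.29% higher, and on day 3 18.8% and 11.2% of 10333. The median log2 ratio of the 7 genes was -0.27 on day 2 and -0.54 on day 3, beside 0.01 and -0.05 over all genes tested.

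**Figure D2:**
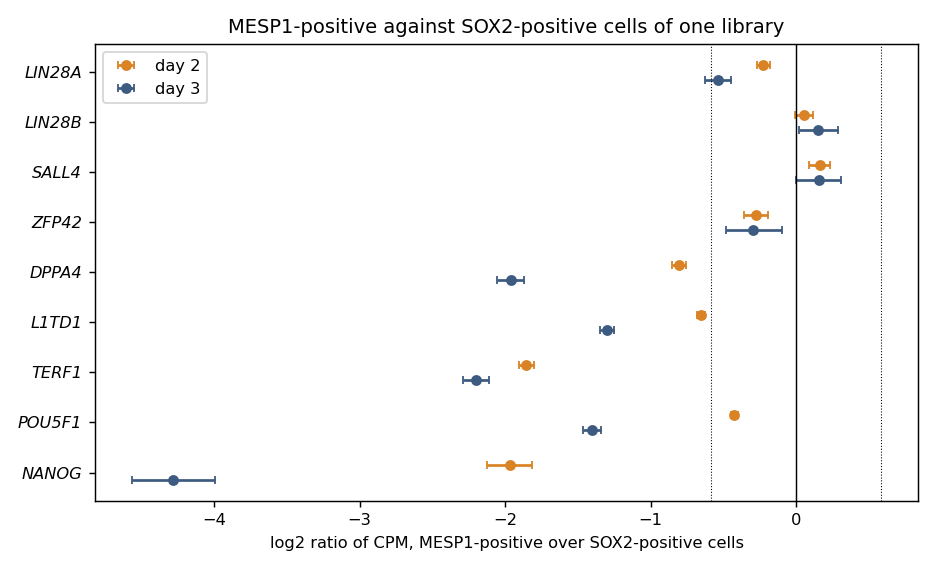
log2 ratio of CPM in MESP1-positive over SOX2-positive cells of day 2 and day 3 for the 7 genes, POU5F1 and NANOG, with bars for the exact conditional 95% interval and dotted lines at 1.5-fold. TERF1 lies at -1.85 and -2.20, DPPA4 at -0.80 and -1.96, and LIN28B and SALL4 lie between 0.06 and 0.16 on both days (below 0 on day 3 with at least 2 UMIs for a positive cell, and for SALL4 with thinned levels).

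Among the RNA-binding members, LIN28A was somewhat lower in MESP1-positive cells and LIN28B was not. LIN28A was at 371 CPM in SOX2-positive and 317 CPM in MESP1-positive cells on day 2, a ratio of 0.855 (0.829 to 0.882). On day 3 it was at 455 and 313 CPM, a ratio of 0.689 (0.648 to 0.733), just short of the 1.5-fold rule; with levels from thinned UMIs it was 0.570 and met it. LIN28B was at 167 and 173 CPM on day 2, with a ratio of 1.04 (0.995 to 1.09), and at 191 and 213 CPM on day 3, with a ratio of 1.11 (1.01 to 1.22). With at least 2 UMIs for a positive cell, which left 22 SOX2-positive cells, the day 3 ratio of LIN28B was 0.900. L1TD1 was at 1384 and 880.5 CPM on day 2, 1.57-fold lower in MESP1-positive cells, and at 1543 and 627 CPM on day 3, 2.46-fold lower (2.38 to 2.55).

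Among the nuclear factors, SALL4 was at 118 CPM in SOX2-positive and 132 CPM in MESP1-positive cells on day 2, a ratio of 1.12 (1.06 to 1.18). On day 3 it was at 149 and 166 CPM, a ratio of 1.11 with an interval of 1.00 to 1.24. Levels taken from thinned UMIs gave 0.964, so the direction for SALL4 on day 3 depends on the setting. ZFP42 was at 105 and 86.8 CPM on day 2, a ratio of 0.827 (0.780 to 0.877), and at 98.4 and 80.4 CPM on day 3, a ratio of 0.817 (0.716 to 0.935). DPPA4 was at 413 and 237 CPM on day 2, 1.74-fold lower in MESP1-positive cells (1.69 to 1.80), and at 449 and 115 CPM on day 3, 3.89-fold lower (3.65 to 4.15).

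Of the 7 genes, TERF1 had the lowest ratio of MESP1-positive over SOX2-positive cells on both days. On day 2 it was at 618 CPM in SOX2-positive and 171 CPM in MESP1-positive cells, 3.62-fold lower (3.49 to 3.75). On day 3 it was at 465 and 101 CPM, 4.60-fold lower (4.32 to 4.90). For comparison, POU5F1 was at 1144 and 853 CPM on day 2, a ratio of 0.746 that did not meet the rule, and NANOG was 3.91-fold lower in MESP1-positive cells. The TERF1 ratio on day 2 ranked above 0.608% of genes tested, the NANOG ratio above 0.497% and the POU5F1 ratio above 11.9%.

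**Figure D3:**
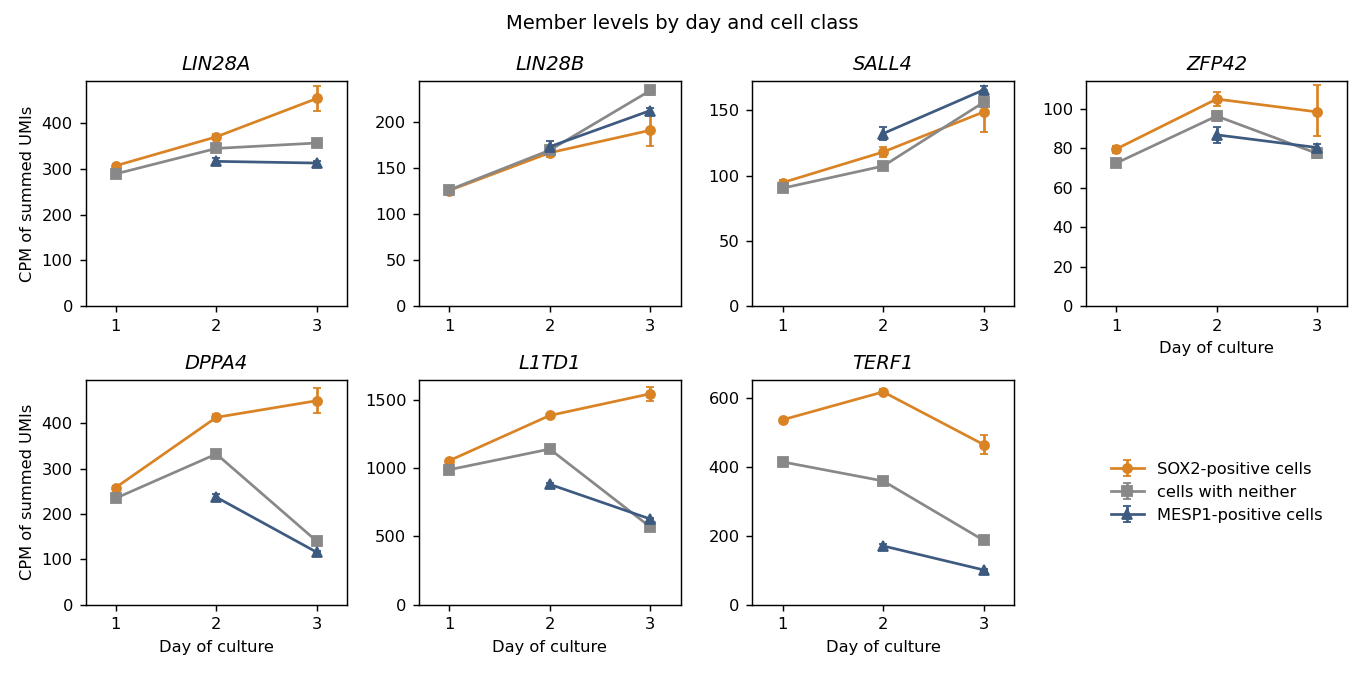
Level of the 7 genes as CPM of summed UMIs in SOX2-positive cells, MESP1-positive cells and cells with neither, by day, with exact Poisson 95% intervals; classes under 50 cells are not drawn. DPPA4 goes from 258 to 413 and 449 CPM in SOX2-positive cells, and from 237 to 115 CPM in MESP1-positive cells.

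Within each class the days differed in another way. In SOX2-positive cells DPPA4 was at 258, 413 and 449 CPM on days 1, 2 and 3, and L1TD1 at 1053, 1384 and 1543 CPM. LIN28A was at 307, 371 and 455 CPM there. On the CPM scale these 3 genes were highest on day 3 in this class, although for DPPA4 and L1TD1 day 3 was the lowest of the whole libraries. From day 2 to day 3 the log2 ratios were 0.12 for DPPA4, 0.16 for L1TD1 and 0.29 for LIN28A, beside a median of 0.14 over all genes, so DPPA4 and L1TD1 did not stand above the shift of all genes. The sum of the streak markers, and MIXL1 and EOMES, were also highest on day 3 in these cells, and their part was not tested. TERF1 was at 537, 618 and 465 CPM in SOX2-positive cells, and the intervals of these 3 values do not overlap. Day 3 rests on 106 such cells and on 1050 UMIs of DPPA4. From day 2 to day 3 none of the 7 met the rule within this class, beside 9.20% of 10018 genes called higher and 2.68% lower. From day 1 to day 2 DPPA4 alone met it, at 1.60-fold higher, beside 14.1% of 9559 genes higher and 4.43% lower. From day 1 to day 3 LIN28B, SALL4 and DPPA4 were called higher, beside 35.7% of 10057 genes higher and 9.13% lower. Their log2 ratios were 0.61, 0.65 and 0.80, beside a median of 0.37 over all genes, and no other scaling was run for this comparison.

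In MESP1-positive cells, the LIN28A level was 317 CPM on day 2 against 313 CPM on day 3, a ratio of 0.988 (0.962 to 1.02). ZFP42 was at 86.8 and 80.4 CPM, LIN28B at 173 and 213 CPM, and SALL4 at 132 and 166 CPM, and none of these 4 met the rule. DPPA4 was 2.05-fold lower on day 3 than on day 2 within this class (1.98 to 2.12), and TERF1 1.69-fold lower (1.63 to 1.76). L1TD1 was at 880.5 and 627 CPM, 1.40-fold lower, which did not meet the rule. In that comparison 9.14% of 9875 genes tested were called lower and 9.16% higher. From the SOX2-positive cells of day 1 to the MESP1-positive cells of day 3, LIN28A was at 307 and 313 CPM and ZFP42 at 79.6 and 80.4 CPM, while TERF1 was 5.31-fold lower and NANOG 17.6-fold lower. DPPA4 and L1TD1 were also called lower there and LIN28B and SALL4 higher, beside 16.3% of 10057 genes lower and 30.7% higher. The median log2 ratio of all genes tested there was 0.25, and no other scaling was run for this comparison.

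The order of the day and class groups differed by gene. Over the 9 groups of at least 50 cells, TERF1 spanned 2.60 log2 units, DPPA4 1.95 and L1TD1 1.44. LIN28B spanned 0.89, SALL4 0.87, LIN28A 0.65 and ZFP42 0.53, beside 4.14 for NANOG and 1.68 for POU5F1. The highest group was the SOX2-positive cells of day 3 for LIN28A, DPPA4 and L1TD1. It was the SOX2-positive cells of day 2 for ZFP42 and TERF1. SALL4 was highest in the MESP1-positive cells of day 3 and LIN28B in the cells of day 3 with neither gene, at 234.5 CPM. Neighbouring groups overlapped in places. The day 2 interval of LIN28B was 162 to 172 CPM in SOX2-positive and 168 to 179 CPM in MESP1-positive cells, and for SALL4 on day 3 these were 134 to 165 and 163 to 168 CPM.

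Levels were next read against the number of MESP1 UMIs in the thinned cell, among cells without a SOX2 UMI after thinning. Before thinning, 35.3% of the day 2 cells with 0 MESP1 UMIs and 10.7% of the MESP1-positive cells had a SOX2 UMI. On day 2 there were 3836 cells with 0, 572 with 1, 262 with 2, 241 with 3 to 4 and 110 with 5 or more. DPPA4 was at 332, 258, 231, 212 and 178 CPM in this order, and TERF1 at 359, 198, 151, 142 and 124 CPM. Both were lower in each bin than in the one before. SOX2 was at 45.8, 16.3, 6.25, 6.40 and 1.82 CPM over the same bins, and the part of cells with SOX2 was not tested. SALL4 was at 107, 123, 135, 149 and 142 CPM, and LIN28A at 345, 333, 313, 296 and 283 CPM. L1TD1 was at 1138 CPM with 0 and between 864 and 901 CPM in the other bins, and ZFP42 between 85.9 and 96.8 CPM throughout.

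On day 3 the same bins held 2328, 1521, 1059, 1149 and 488 cells and showed smaller steps. DPPA4 was at 139.5 CPM with 0 MESP1 UMIs and between 112 and 119 CPM in the other bins. TERF1 was at 187 CPM with 0 and at 108, 101, 96.0 and 92.3 CPM above. L1TD1 was at 568 and 566 CPM with 0 and 1 UMI, and at 645, 671 and 670 CPM above. LIN28B was at 234.5, 222, 211, 208.1 and 198 CPM, lower in each bin than in the one before.

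**Figure D4:**
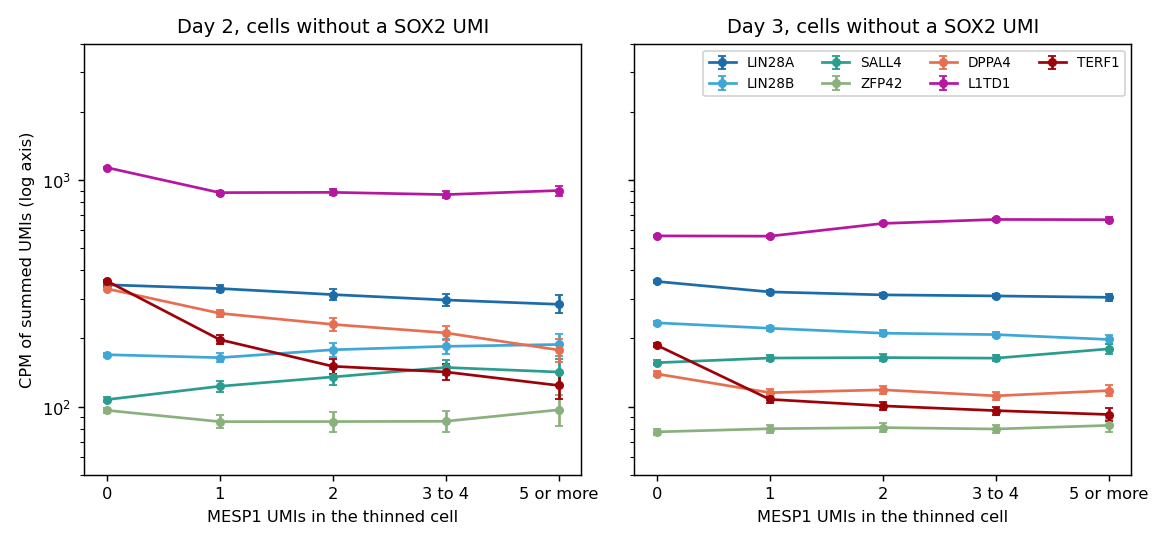
Level of the 7 genes as CPM of summed UMIs (log axis) against MESP1 UMIs per thinned cell, with exact Poisson 95% intervals. Cells of day 2 (left) and day 3 (right) without a SOX2 UMI after thinning are shown. On day 2 TERF1 goes from 359 to 124 CPM and DPPA4 from 332 to 178 CPM from the first bin to the last, and SALL4 from 107 to 142 CPM.

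Cells with neither a SOX2 nor a MESP1 UMI after thinning were split by 2 other genes. They are not cells without MESP1: before thinning, 54.8% of them on day 3 had a MESP1 UMI, as did 61.8% of the HAND1-positive and 63.6% of the TBXT-positive ones, with MESP1 at 101, 117 and 133 CPM. TBXT encodes brachyury, a factor of the primitive streak, and HAND1 is a factor of lateral and extraembryonic mesoderm. On day 2, TERF1 was at 248 CPM in the 1012 TBXT-positive cells of this kind, between the 618 CPM of SOX2-positive and the 171 CPM of MESP1-positive cells. DPPA4 was at 301 CPM and L1TD1 at 1043 CPM in them. Before thinning, 21.3% of these 1012 cells had a SOX2 UMI and 30.0% a MESP1 UMI, and the part of such cells was not tested. On day 3, the 1501 HAND1-positive cells of this kind had the lowest DPPA4 and L1TD1 levels of the classes measured, at 94.5 and 381 CPM. POU5F1 was at 239 CPM in them, LIN28A at 325 CPM, LIN28B at 250 CPM and SALL4 at 159 CPM. The class they come from had the largest amnion and germ cell marker sums of day 3, given above, with IGFBP3, an amnion marker, at 20.02 CPM against 1.73 CPM in MESP1-positive cells, and the part of such cells was not tested. TERF1 was at 179 CPM there, above the 101 CPM of MESP1-positive cells. So the lowest TERF1 level and the lowest L1TD1 level of day 3 were in different classes.

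Shares of cells with a UMI were taken after thinning to 5000 UMIs. LIN28A was found in 73.1%, 79.4% and 76.9% of cells on days 1, 2 and 3, LIN28B in 46.0%, 55.9% and 63.2%, and SALL4 in 35.0%, 43.0% and 53.2%. ZFP42 was found in 31.8%, 37.3% and 32.1%. DPPA4 was found in 68.5%, 78.1% and 43.1%, L1TD1 in 97.3%, 97.5% and 84.0%, and TERF1 in 84.5%, 72.8% and 40.8%. These shares are known to within about the interval of LIN28B on day 1, 44.3 to 47.7%. DPPA4, L1TD1 and TERF1 had their lowest share on day 3, and LIN28B and SALL4 their highest. Without thinning the day 3 shares were 97.7% for LIN28A, 94.1% for LIN28B, 88.9% for SALL4, 72.9% for ZFP42, 82.5% for DPPA4, 96.4% for L1TD1 and 80.3% for TERF1. No class of cells that should lack these genes was available to measure free RNA, and its part in the shares was not tested.

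In MESP1-positive cells of day 3, a LIN28A UMI was found in 75.5% (74.2 to 76.8), LIN28B in 63.2%, SALL4 in 54.5%, ZFP42 in 32.7%, L1TD1 in 87.7%, DPPA4 in 41.4% and TERF1 in 37.1%. In the SOX2-positive cells of that day the share was 93.4% (86.9 to 97.3) for LIN28A, 52.8% for LIN28B, 52.8% for SALL4, 39.6% for ZFP42, 98.1% for L1TD1, 84.0% for DPPA4 and 79.2% for TERF1. NANOG was found in 1.49% of the MESP1-positive and 35.8% of the SOX2-positive cells. The intervals of the classes did not overlap for LIN28A, L1TD1, DPPA4 and TERF1, and they overlapped for LIN28B, SALL4 and ZFP42.

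The number of the 7 genes with a UMI in one thinned cell was also counted. On day 1 SOX2-positive cells had 4.43 ± 1.19 of 7 (mean ± SD over 1932 cells), on day 2 4.94 ± 1.13 and on day 3 5.00 ± 1.15. MESP1-positive cells had 4.31 ± 1.18 on day 2 and 3.92 ± 1.26 on day 3. At least 4 of 7 were found in 63.5% of MESP1-positive cells on day 3 (62.0 to 64.9) and in 92.5% of SOX2-positive cells (85.7 to 96.7). A MESP1-positive cell with none of the 7 was rare, at 5 of 4217 cells on day 3 (0.119%, 0.0385 to 0.276).

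**Figure D5:**
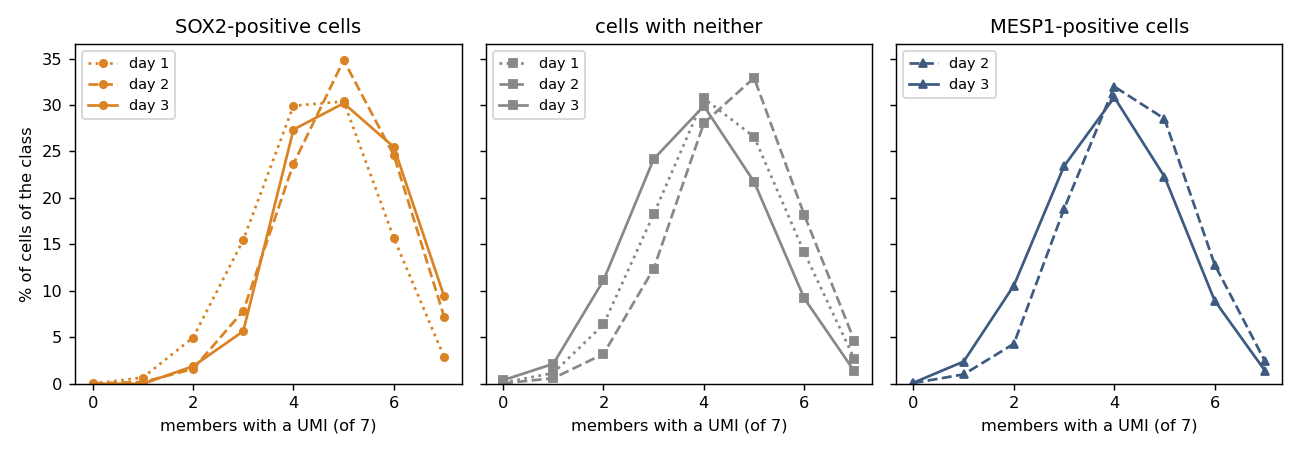
Percent of cells of a class against the number of the 7 genes with a UMI after thinning to 5000 UMIs, for SOX2-positive cells, cells with neither gene and MESP1-positive cells, by day. The MESP1-positive cells move from a mean of 4.31 on day 2 to 3.92 on day 3, and the SOX2-positive cells from 4.43 on day 1 to 5.00 on day 3.

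The UMIs of each gene were split over the classes beside the split of all UMIs. On day 3 MESP1-positive cells held 64.4% of all UMIs and cells with neither gene 33.5%. The MESP1-positive cells held 65.8% of the SALL4 UMIs, 64.9% of ZFP42, 64.5% of L1TD1, 62.4% of LIN28B, 60.9% of LIN28A, 57.2% of DPPA4 and 47.5% of TERF1, beside 21.4% of NANOG. Cells with neither gene held 45.8% of the TERF1 UMIs, and between 30.5% and 36.2% of those of the other 6 genes. The 106 SOX2-positive cells held 1.70% of all UMIs and 5.89% of the DPPA4 and 5.78% of the TERF1 UMIs. On day 2 the MESP1-positive cells held 17.3% of all UMIs, 19.98% of SALL4 and 7.54% of TERF1.

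Genes that work with the members were described from lists of pathway genes. Of 23 genes of the LIN28 and let-7 pathway, all tested, 5 were called higher and 1 lower from day 1 to day 3, beside 31.0% and 15.0% of all genes tested, with a median log2 ratio of 0.42. TMM scaling was not run for this list, and with it 17.7% of all genes were higher and 25.6% lower. PRTG, a cell surface protein, was at 4.39, 35.8 and 335 CPM on days 1, 2 and 3. HMGA1, a chromatin protein, was the gene called lower, at 2021, 1526 and 1185 CPM. MYC, a growth-promoting factor, was at 26.1, 39.1 and 46.1 CPM and TUT4, a terminal uridylyltransferase that acts on let-7 precursors, at 55.1, 76.8 and 89.1 CPM. The let-7 targets HMGA2 and IGF2BP1 were at 120 and 162 CPM on day 1 and 163 and 259 CPM on day 3, of which IGF2BP1 met the rule. In MESP1-positive over SOX2-positive cells, 1 was called higher and 1 lower on day 2, beside 7.29% and 8.13% of all genes, and 1 and 3 on day 3, beside 11.2% and 18.8%.

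Of 16 genes of the SALL family and of NuRD, 8 were called higher and 1 lower from day 1 to day 3, beside 31.0% and 15.0% of all genes tested (17.7% and 25.6% with TMM scaling, not run for this list), with a median log2 ratio of 0.65. SALL1 was at 19.0, 26.8 and 67.3 CPM and SALL2 at 41.5, 42.9 and 18.5 CPM, so the family members differed in direction. CHD3, a NuRD helicase, was at 5.29, 10.8 and 35.1 CPM, and MTA2, a NuRD subunit, at 5.75, 12.3 and 22.7 CPM. HDAC2, a NuRD deacetylase, was at 147, 232 and 314 CPM. In MESP1-positive over SOX2-positive cells 3 were called higher and 3 lower on each day, beside 7.29% and 8.13% of all genes on day 2 and 11.2% and 18.8% on day 3, among them SALL1 at log2 ratios of 1.20 and 1.63 and SALL3 at -0.64 and -1.44.

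The partners of the other members were read in the same way. YY1, the gene from which ZFP42 derives, was at 171, 190 and 193 CPM, and RLIM, a ubiquitin ligase that acts on ZFP42 protein, at 28.3, 35.9 and 39.6 CPM. DPPA2, the partner of DPPA4, was at 3.93, 5.83 and 3.81 CPM, below the level for a call on each day. Of 14 other genes of shelterin and telomerase 11 were tested from day 1 to day 3, with 3 called higher and 1 lower, beside 31.0% and 15.0% of all genes, and a median log2 ratio of 0.43. With TMM scaling, not run for this list either, 17.7% of all genes were higher and 25.6% lower. ACD, a shelterin subunit also known as TPP1, was the gene called lower, at 26.4, 16.3 and 14.7 CPM. TERF2, the other telomere repeat binder, was at 21.5, 26.6 and 31.4 CPM, and TNKS, a tankyrase that acts on TERF1 protein, at 44.3, 81.0 and 99.5 CPM. TERT, the catalytic subunit of telomerase, was below 10 CPM in each library, at 9.33, 6.56 and 3.56 CPM. In MESP1-positive over SOX2-positive cells of day 2, 0 of the 11 tested were called in either direction, beside 7.29% of all genes higher and 8.13% lower. On day 3 1 of 12 was called higher and 2 lower, beside 11.2% and 18.8% of all genes.

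Of 15 other pluripotency genes 11 were tested from day 1 to day 3, with 10 called lower, beside 15.0% of all genes, and a median log2 ratio of -2.52. UTF1 was at 89.9, 17.4 and 1.84 CPM and USP44, a deubiquitinase, at 108, 71.8 and 8.23 CPM. DNMT3B, a DNA methyltransferase, was at 270, 305 and 138 CPM and TDGF1, a NODAL co-receptor, at 196, 240 and 124 CPM.

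Among the members 3 pairs had the closest profiles. Likeness was the root mean square difference of log2(CPM + 1), centred per gene, over the 9 day and class groups. It was 0.10 between LIN28B and SALL4, 0.13 between LIN28A and ZFP42 and 0.22 between DPPA4 and L1TD1, and TERF1 lay nearest to POU5F1, at 0.42. Among 9496 genes of at least 10 CPM on average, the nearest to LIN28A was ANAPC1 (0.05), the nearest to LIN28B ZYG11B (0.03) and to ZFP42 EIF1B (0.05). The nearest to DPPA4 was NBEA (0.10), to L1TD1 MDN1 (0.09) and to TERF1 FOXO1 (0.16). Also among the 3 nearest were PARN and HAUS1 for LIN28A, GTF2IRD1 for LIN28B, GTF2F1 and RPF1 for SALL4, and MRPL1 and CCDC66 for ZFP42. They were MYEF2 and OLFM2 for DPPA4, GDAP1 and GARNL3 for L1TD1, and PIM2 and TMEM63A for TERF1. The groups of one day share a library, so these distances are a description.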

How the data were processed

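The authors deposited raw counts: for each of 3 libraries, a matrix giving UMIs of 36601 genes per barcode. Cell Ranger 5.0.1 and hg38 are named in the submitters' processing notes. Of the 4889, 10580 and 7860 barcodes, 1212, 2688 and 599 were dropped for fewer than 1000 genes or over 20% mitochondrial UMIs. The Scrublet routine of scanpy 1.11.5 marked 4, 0 and 1 cells with its automatic threshold, which was not used here. The cells with the highest scores of this routine were removed instead, at an assumed 0.8% per 1000 barcodes, which were 144, 668 and 457 cells. Whether these cells were doublets was not tested. This left totals of 165512064, 120007245 and 137760348 UMIs. Thinning left out 34, 482 and 129 cells below 5000 UMIs. Intervals are exact (Poisson for CPM, conditional binomial for ratios, Clopper-Pearson for shares). The calling and interval functions were tested on simulated data. Positions are from GENCODE release 44.

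The members and lists were chosen with earlier results of these data known. Named were the members, the reference genes POU5F1, NANOG, SOX2 and MESP1, of each list those with the largest change or a known role beside a member, and the 3 nearest profiles; some genes that this rule names are not reported here. The TBXT and HAND1 classes, the bins of MESP1 UMIs and the promoter and let-7 searches were not listed with the planned analyses. LIN28A, SALL4 and TERF1 promoters were not used here. Alternatives covered TMM scaling (edgeR 4.0.16), median-of-ratios scaling, totals, cell filters, doublets, thinning depth, the UMIs of a positive cell and the thresholds.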

Additional observations from a re-analysis of the deposited data

How the results depend on the processing

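The calls of DPPA4, L1TD1 and TERF1 as lower on day 3 than on day 2, on day 3 than on day 1, and in MESP1-positive than in SOX2-positive cells held under each alternative except the 2-fold rule. Under either TMM or median-of-ratios scaling 1 member (TERF1) instead of 0 was lower on day 2 than on day 1. Beside it 17.3% of all genes tested were lower under either scaling. With these scalings 0 instead of 2 were higher on day 3 than on day 1, beside 17.7% and 18.7% of all genes. With the 2-fold rule 1 (TERF1) was lower and 0 higher on day 3 than on day 1, beside 7.76% and 15.1% of all genes. Under that rule 1 (TERF1) was lower in MESP1-positive cells on day 2, beside 3.47% of all genes. TMM scaling moved the percentage of higher genes among all genes called from 76.5 to 24.6 for day 2 over day 1, from 67.3 to 40.9 for day 3 over day 1, and from 37.2 to 57.1 for the classes of day 3. LIN28A was called lower in the MESP1-positive cells of day 3 under 2 alternatives, at log2 ratios of -0.60 and -0.81. Day 2 over day 1, TMM scaling turned the log2 ratios of LIN28A to -0.12, SALL4 to -0.03 and L1TD1 to -0.16. With at least 2 UMIs for a positive cell, which left 22 SOX2-positive cells on day 3, LIN28B was at -0.15 and SALL4 at -0.002 there. The 106 SOX2-positive cells of day 3 and the single library per day limit precision. No paired analysis was possible because each day is 1 library.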
